A study of Rattus norvegicus with 15 samples.

Results

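The genes described here were chosen by their own values as a set that fell in steps over 3 stages of the growing rat molar, E15, E17 and E18. A gene was taken when each of its 5 E17 teeth lay below each of its 5 E15 teeth, when its stage means fell from E15 to E17 to E18, when its E15 mean was at least 100 normalized counts, and when its E18 mean was at most 0.67 of its E15 mean. A normalized count is an estimated read count divided by the size factor of its library, so that libraries of different depth can be compared. Genes named in the tables of keystone and pathway genes of the study were left out. Of 14185 genes in the table, 275 were chosen, and 8 more met the same numbers but were named in those tables. The difference between stages is therefore what chose the genes, and it is given below as a description with no test.

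RNA was sequenced from single molar tooth germs of DA/HanRj rat embryos, with 5 libraries at E15 (labelled E15.5), 5 at E17 (labelled E17.5) and 5 at E18. By the labels or the methods of the study the teeth were wild type, with no treatment, and the E18 labels name the lower first molar, whereas the labels of the earlier stages say only first molar. Each library was made from 1 tooth, 9 of them left and 6 right, and E17 replicates 1 and 2 were the left and right tooth of 1 embryo. Every stage carries a title code of its own, and the labels do not say what the code stands for. Stage and whatever goes with the code cannot be told apart. Library totals ran from 10993502 to 27571541 counts. The transcription factor genes Msx1, Pax9, Barx1, Lhx6 and Trp63, which mark the dental epithelium or mesenchyme, were detected in every library.

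A molar germ begins as a thickening of the oral epithelium that buds into the jaw, and mesenchyme derived from the neural crest condenses around the bud. The epithelium then folds into a cap, with the enamel knot as its signalling centre, and the mesenchyme beneath it becomes the dental papilla. According to the methods of the study, the rat stages E15 and E17 match mouse molars at the bud and cap. In bulk tissue, a lower level of a transcript can stand for fewer cells that make it or for less RNA per cell, and these cannot be told apart.

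The table gives mouse Ensembl identifiers. Symbols could be given to 356 of its genes through pairs listed with the study, and these included 2 of the 275 members, Frzb and Slitrk6. Both belong to a list of genes that the study calls dispensable for the tooth, which is neither a keystone nor a pathway table. The other 273 members have an identifier only, so they are described by their levels and not by function. Frzb encodes a secreted antagonist that binds Wnt ligands outside the cell, and Slitrk6 encodes a membrane protein with leucine-rich repeats known from sensory neurons and the inner ear.

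The promoters of both named members are shown because their transcripts were chosen by the same pattern. They are RefSeq sequences of the rat genome build GRCr8, from 250 bases before to 50 bases after the annotated start, written 5′ to 3′ on the strand of the gene. That of Frzb lies on the minus strand at chr3:85772047-85772346 and that of Slitrk6 on the minus strand at chr15:93984382-93984681. Capitals mark every match to 1 of 8 motifs searched on both strands.
Frzb: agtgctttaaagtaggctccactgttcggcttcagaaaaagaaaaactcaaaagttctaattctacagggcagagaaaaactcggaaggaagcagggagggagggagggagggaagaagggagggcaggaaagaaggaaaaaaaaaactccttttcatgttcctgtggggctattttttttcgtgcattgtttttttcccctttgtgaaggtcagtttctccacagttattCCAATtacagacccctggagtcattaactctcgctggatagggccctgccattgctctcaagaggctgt
Slitrk6: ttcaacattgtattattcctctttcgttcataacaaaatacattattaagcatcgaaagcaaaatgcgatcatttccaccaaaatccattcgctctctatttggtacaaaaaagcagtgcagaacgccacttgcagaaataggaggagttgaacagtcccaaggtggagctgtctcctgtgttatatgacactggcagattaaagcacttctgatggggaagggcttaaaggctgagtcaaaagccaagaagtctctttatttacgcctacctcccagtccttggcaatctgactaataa

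The Frzb window held a single match, to the CCAAT box (CCAAT), which 37.5% of all 33469 promoters of this length in the table also hold. The Slitrk6 window held no match. Of the other motifs searched, the E2F site, with the letters TTCCCGC, occurs in 4.21% of all promoters in the table. The E-box of Myc, with the letters CACGTG, occurs in 6.42% of them. For the ETS site the letters CCGGAAG were searched, and 8.75% of all promoters hold them. The CRE was searched as TGACGTCA and is held by 1.83% of all promoters. The NRF1 core was searched as GCGCATGCG and is held by 1.52%. The GC box of SP1, with the letters GGGCGG, is held by 33.1% of the promoters, and the TATA box, with the letters TATAAA, by 14.2%. With 2 members, no share over the set can be given, and a match describes letters, not a site in use.

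Before the members are described, 1 library must be set apart. E18 replicate 3 lay below the other E18 teeth over a large part of the table. In it, 32.2% of 9701 genes with an E15 mean of at least 100 and outside the study's tables were at or under 0.67 of their E15 mean, against 4.51% to 7.2% in the other 4 E18 teeth. The median gene outside the set moved little there, with a log2 difference from the E15 mean of -0.05 to -0.04 in the E18 libraries and -0.04 in E18 replicate 3. Its total of 11284791 counts was within the range of the other libraries. The tooth is labelled as the rest of its stage and was kept in the rule, so the main results on the members are given with and without it.

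Without E18 replicate 3 the same rule chose 187 genes. Of the 275 members 172 were chosen again (62.5%), 103 were lost and 15 genes were gained. Of the lost members, 94 missed the limit on the ratio and 9 no longer fell from E17 to E18. Both named members were chosen either way. The names kept and lost are used below for the 172 and the 103.

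The members fell by a median of 0.48 on the log2 scale from E15 to E17 and of 0.37 from E17 to E18, and of 0.82 over the whole span. The corresponding medians over all 9944 genes with an E15 mean of at least 100 were -0.04, -0.02 and -0.06. The members' quartiles for the whole span were -1.18 and -0.67. The ratio of E18 to E15 was over 0.6, and so near the limit, in 104 members (37.8%). From E15 to E18, 94 members (34.2%) were at least 2-fold lower and 17 (6.18%) at least 4-fold lower. Without E18 replicate 3, 84 members were at least 2-fold lower. The highest ratios inside the limit were 0.667, 0.668 and 0.67 and the next outside it were 0.671, 0.671 and 0.672, so no gap set the members apart from their neighbours. On the E15 mean, the lowest members stood at 109, 109 and 116 normalized counts and the nearest genes outside at 99.8, 97.1 and 94.2.

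Tooth by tooth, the members' median log2 difference from the E15 mean was -0.11, -0.02, 0.12, 0.04 and -0.07 in E15 replicates 1 to 5. In the E17 teeth it was -0.42, -0.49, -0.47, -0.49 and -0.52. In the E18 teeth it was -0.66, -0.69, -1.82, -0.76 and -0.83. The E17 teeth lay within 0.11 of each other on this scale, and E18 replicate 3 lay 0.99 below the nearest other E18 tooth. The mean of the 5 E18 medians was -0.95, below 4 of them.

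**Figure D1:**
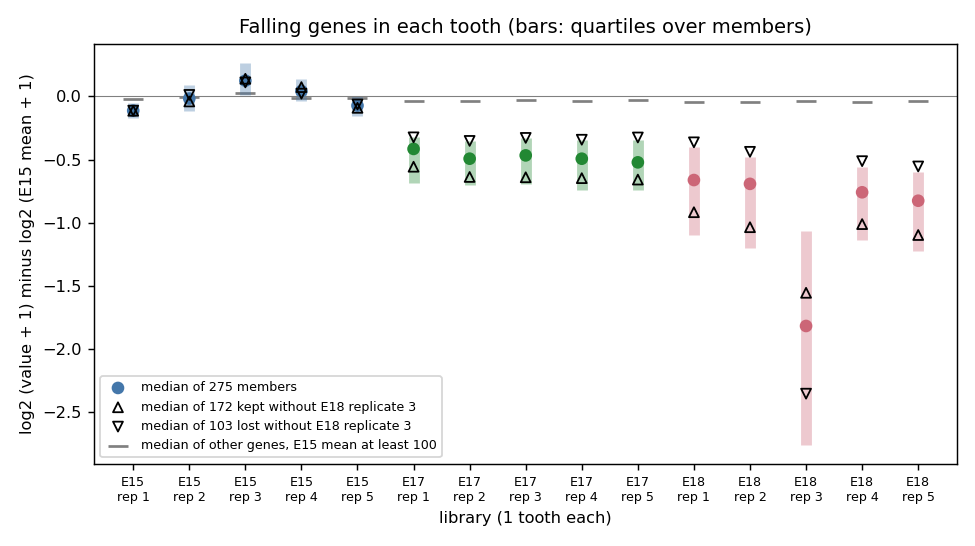
Each column is 1 library; filled circles give the median over the 275 members of log2 (value + 1) minus log2 (E15 mean + 1), shaded bars their quartiles, open triangles the medians of the 172 kept (pointing up) and 103 lost (pointing down) members, and grey dashes the median of the other genes with an E15 mean of at least 100. The E17 medians lie between -0.52 and -0.42, 4 E18 medians lie between -0.83 and -0.66, and that of E18 replicate 3 lies at -1.82.

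Kept and lost members differed in where they fell. Over the 172 kept members the median was -1.55 in E18 replicate 3 and between -1.10 and -0.92 in the other E18 teeth. Over the 103 lost members it was -2.35 in E18 replicate 3 and between -0.55 and -0.36 in the others, close below their E17 medians of -0.35 to -0.32. In E18 replicate 3 the value was under 0.5 of the mean of the other E18 teeth in 40 of the 172 kept members (23.3%), in 81 of the 103 lost members (78.6%) and in 1782 of the 9944 genes with an E15 mean of at least 100 (17.9%). Being lost was defined by what this library did to the mean, so these shares describe the split and test nothing.

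E18 replicate 3 carried part of the fall between E17 and E18, mainly in the lost members. Without it the members' median was -0.24 from E17 to E18 and -0.74 from E15 to E18, and the E17 mean stayed above the E18 mean in 266 of 275 members. For the lost members the median from E17 to E18 went from -0.34 with the library to -0.11 without it, and for the kept members from -0.44 to -0.37. The spread among the E18 teeth moved in the same way. The median coefficient of variation of the members was 28.3% over 5 E18 teeth and 11.5% over 4, against 16.5% and 8.66% over all genes with an E15 mean of at least 100. It was 11.1% among the E15 teeth and 8.37% among the E17 teeth.

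In the median member, more of the fall lay before E17 than after it. The step from E15 to E17 held the larger part of the log2 fall in 171 of 275 members (62.2%). The step from E17 to E18 held it in 104 (37.8%). By the age labels E15.5, E17.5 and E18 these steps last 2 and 0.5 days. The titles read E15, E17 and E18, so the length of the second step is uncertain. At the median, 54.3% of the log2 fall lay before E17, and 65.9% without E18 replicate 3. At least 2-fold lower at E17 than at E15 were 28 members, and at least 2-fold lower at E18 than at E17 were 13. The E18 teeth and the E17 teeth overlapped in most members. All 5 E18 values lay below all 5 E17 values in 70 of 275 (25.5%), against 2.87% of all genes with an E15 mean of at least 100. Leaving out a tooth can only raise such a count. Without E18 replicate 3 the other 4 E18 values did so in 86 members, for which no share over all genes is given here. All E18 values lay below all E15 values in 261 members (94.9%), against 12.2%. The rule asked for no overlap between E15 and E17 teeth, but only for falling means from E17 to E18. That favours a larger first step. As the rule used these stages, nothing is read from the shares of the fall or from the counts without overlap.

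**Figure D2:**
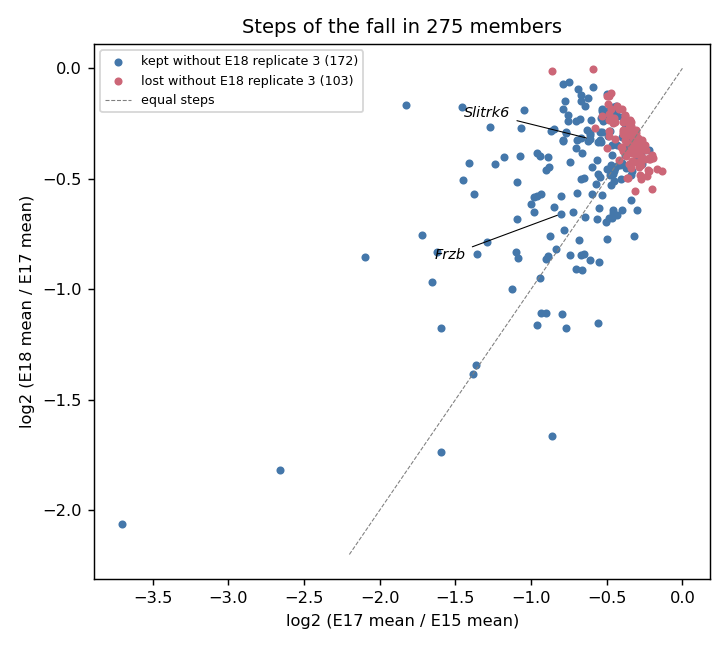
Each point is 1 of the 275 members, with the log2 ratio of the E17 mean to the E15 mean on the x axis and of the E18 mean to the E17 mean on the y axis; blue points were kept and red points lost without E18 replicate 3, and the dashed line marks equal steps. The lost members gather close to the corner at 0, with medians of -0.33 and -0.34 for both steps, and 171 members lie above the line.

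Among the members, the class with the lowest level had the largest median fall. The 57 members with an E15 mean under 300 had a median log2 ratio of E18 to E15 of -1.11, and the 49 members over 3000 had -0.69. The classes between them, of 93 and 76 members, had medians of -0.81 and -0.77. The rule asked for no overlap between E15 and E17 teeth. A gene with a wide spread between teeth meets that only with a larger fall, so nothing is read from this order. These levels are not corrected for gene length, so they rank the precision of a gene and not the abundance of its transcript against that of other genes. Together the members took 3.57% ± 0.14 of all normalized counts at E15, 2.57% ± 0.04 at E17 and 1.98% ± 0.34 at E18 (SD, n = 5 teeth each). In E18 replicate 3 the share was 1.41%, and in the other E18 teeth it was 1.97% to 2.29%.

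Frzb, the Wnt antagonist, fell at each step with no overlap between stages. Its normalized counts were 3421, 2978, 3633, 3242 and 3680 in the E15 teeth. They were 1673, 1890, 2235, 2039 and 1875 in the E17 teeth. They were 1286, 1444, 883, 1389 and 1147 in the E18 teeth. The lowest E17 tooth stood above the highest E18 tooth, and E18 replicate 3 was again the lowest of its stage. The means were 3391 ± 290, 1942 ± 209 and 1230 ± 225 (SD, n = 5), and the E18 mean without E18 replicate 3 was 1316 ± 131 (SD, n = 4). The log2 ratio of E18 to E15 was -1.46 and without that tooth -1.36.

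Slitrk6 fell before E17 and showed little further fall in most E18 teeth. Its normalized counts were 272, 383, 361, 334 and 319 at E15. They were 247, 187, 194, 241 and 223 at E17. They were 224, 218, 33.5, 207 and 193 at E18, so that 4 E18 teeth lay inside the range of the E17 teeth and E18 replicate 3 far below it. The means were 334 ± 42.6, 218 ± 27.2 and 175 ± 80.0 (SD, n = 5). The log2 ratio of E18 to E17 was -0.32, and without E18 replicate 3 it was -0.05.

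Among the unnamed members, ENSMUSG00000040113 had the largest fall. Its normalized counts were 84.0, 146, 170, 146 and 77.2 at E15. They were 2.19, 30.6, 4.16, 1.07 and 9.94 at E17 and 4.35, 4.90, 2.23, 0 and 0 at E18. The E17 teeth differed widely among themselves, and the E17 and E18 teeth overlapped. At E18 its counts before scaling were between 0 and 9, close to the 3 counts that a value of 0 still allows, so its ratio of E18 to E15 of 0.0184 has little precision.

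ENSMUSG00000046743 had the highest E15 level in the set. Its normalized counts were 20363, 21759, 21294, 23354 and 21153 at E15. They were 17688, 16958, 18782, 17083 and 18763 at E17, and 14734, 14457, 12107, 14436 and 12198 at E18. No tooth of a later stage reached the lowest tooth of the stage before, in steps of -0.27 and -0.39 on the log2 scale. Here E18 replicate 3 stood beside E18 replicate 5 and its value was 86.7% of the mean of the other E18 teeth.

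The 8 genes that met the same numbers but are named in the keystone or pathway tables show the pattern in genes of known role. Bmp2 encodes a secreted signal of the BMP family and Bmpr1a encodes a receptor for such signals. Jak2 encodes a kinase that carries receptor signals inside the cell. Tle1 encodes a corepressor of Wnt target genes, and Gli3, Dlx6, Lhx8 and Sp3 encode transcription factors, of which Gli3 mediates Hedgehog signals. Bmp2 went from 425 ± 64.5 at E15 to 309 ± 25.1 at E17 and 183 ± 37.9 at E18 (SD, n = 5), with every E18 tooth below every E17 tooth. Lhx8 went from 4878 ± 196 to 3041 ± 264 and 2509 ± 266, and Gli3 from 4876 ± 715 to 3373 ± 285 and 3191 ± 106. Most of the fall of Lhx8 and Gli3 came before E17, with 71.0% and 86.9% of the log2 fall there, against 38.1% for Bmp2.

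The same genes separate into those that rest on E18 replicate 3 and those that do not. Without it Tle1, Gli3, Bmp2, Dlx6 and Lhx8 still met the numbers, and Bmpr1a, Jak2 and Sp3 did not. Sp3 was at 94.8 in E18 replicate 3 and between 2103 and 2679 in the other E18 teeth. Its value there was 3.97% of their mean, against 23.3% for Bmpr1a and 30.5% for Jak2. In contrast, Tle1 stood at 120%, Lhx8 at 114% and Gli3 at 103% of the mean of the others. The library was thus not lower for every gene of the pattern.

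**Figure D3:**
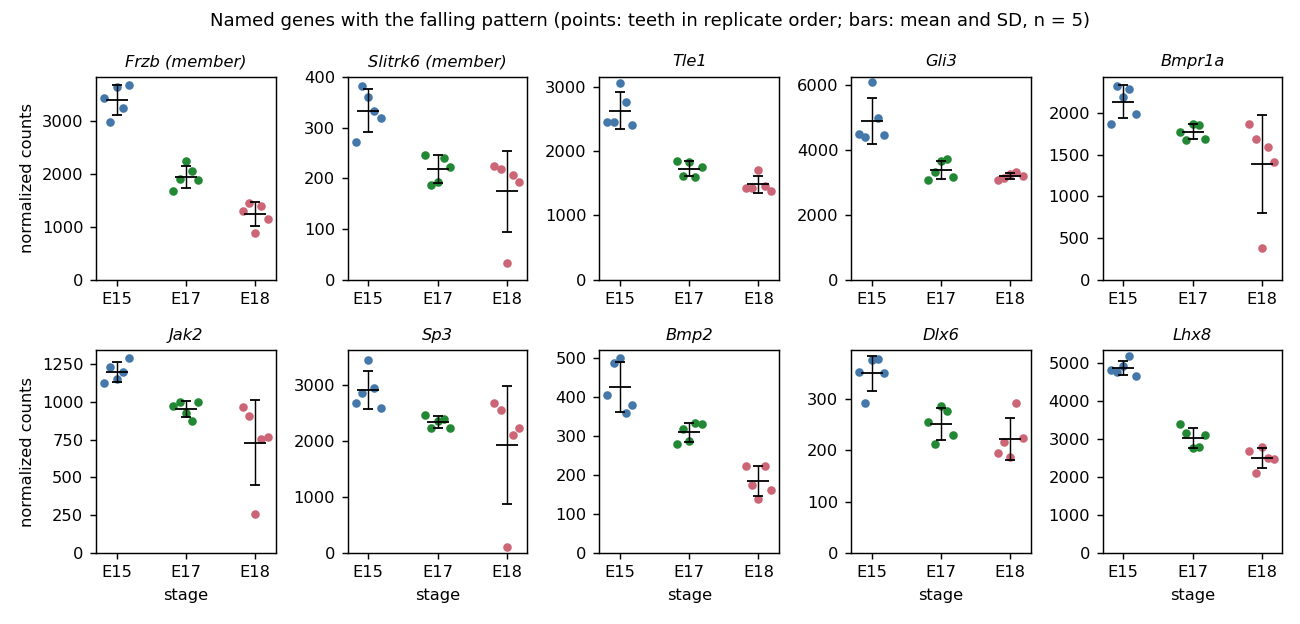
Each panel shows 1 named gene with its normalized counts on the y axis and the stage on the x axis; points are teeth in replicate order and bars are the mean and SD (n = 5). In Slitrk6, Bmpr1a, Jak2 and Sp3 the third E18 point lies far below the other 4, and in Frzb and Bmp2 no E18 tooth reaches the E17 teeth.

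Of the study's 6 pathways, EDA and Notch had no gene that met the numbers, out of 17 and 31 with a row. Wnt had 1 of 61, TGFB 2 of 54, FGF 1 of 62 and Hh 1 of 40, beside 283 of 14185 (2%) over the whole table. With edgeR's quasi-likelihood test and a Benjamini-Hochberg adjusted p-value under 0.05, 8 of 61 Wnt genes tested were lower and 19 higher at E18 than at E15, for a median log2 difference of 0.11 beside -0.02 over all genes tested. For TGFB these were 5 lower and 13 higher of 52, for FGF 2 and 14 of 60, for Hh 5 and 5 of 40, for EDA 0 and 4 of 17, and for Notch 0 and 13 of 30. Over all 12661 genes tested 1804 (14.2%) were higher and 852 (6.73%) lower, so genes called higher outnumbered those called lower in the whole table too. Without E18 replicate 3, 2083 of 12757 genes were higher and 1484 lower. The counts by pathway are given with that library only, and may change without it.

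Few markers of the tissue layers could be read by name. The epithelial markers Trp63 and Perp rose from E15 to E18, by 1.13 and 1.66 on the log2 scale (adjusted p = 0.000285 and 0.000119, edgeR). Of 4 mesenchymal markers with a row, Pdgfra fell by 0.58 (adjusted p = 0.00167, edgeR), Col1a1 and Dcn rose by 1.47 and 0.90 (adjusted p = 0.00121 and 0.00939, edgeR), and Postn was at -0.04 (adjusted p = 0.906, edgeR). Of 4 axon guidance and Eph genes Nrp2 and Epha7 fell, by 0.56 and 0.59 (adjusted p = 0.0104 and 0.0303, edgeR), and Sema3f and Slit3 were at 0.16 and 0.19 (adjusted p = 0.411 and 0.226, edgeR). Collagen and matrix genes had 3 of 7 higher and 0 lower, and bone markers 1 of 3 higher, beside the 14.2% higher and 6.73% lower over all genes tested. These marker and list values all include E18 replicate 3 and are not given without it. The part of the tissue makeup in the fall of the members was not tested. Markers of muscle, cartilage, nerve, endothelium, blood and macrophages were not analysed here.

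The size of the fall against the replicate error was fitted over all genes, and is given for the members without any reading, as the rule used the same libraries. At E17 against E15, edgeR's quasi-likelihood test called 261 of 275 members lower at an adjusted p-value under 0.05, and 7.02% of all genes tested. At E18 against E15 it called 192 of 275, and 6.73% of all genes. At E18 against E17 it called 28 of 273, and 0.629% of all genes. Without E18 replicate 3 these became 270 of 275 for E18 against E15, with 11.6% of all genes, and 82 of 274 for E18 against E17, with 1.95% of all genes. No member was called higher in any of these fits.

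The pattern was also read in libraries left out of the choice. For each library in turn the rule was applied to the other 14, and the genes so chosen were then looked up in the library left out. When an E17 tooth was left out, 84.9% to 96.2% of the chosen genes lay below every E15 tooth in it, against 23.2% to 28.3% of all genes outside the study's tables with an E15 mean of at least 100. The genes that did so numbered 275 for each tooth, of which 272 to 275 were members, so the percentage nearly restates how many genes the rule gains without that tooth. When an E15 tooth was left out, 84.1% to 95.4% lay above every E17 tooth in it, against 26.3% to 40.6%. The left-out tooth was compared with teeth that had chosen the genes, and the share over all genes has no such choice behind it, so these shares are a description and the distance between them tests nothing. The size factors came from all 15 libraries, and the teeth of a stage share a title code of unstated meaning.

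For a left-out E18 tooth the condition was the limit of 0.67, which the rule sets on the stage mean and not on single teeth. These shares are therefore of another kind than those at E15 and E17. No share for teeth used in the choice is given beside them. In E18 replicates 1, 2, 4 and 5 the share of chosen genes at or under 0.67 of the E15 mean was 44.4%, 53.5%, 61.6% and 71.6%, against 4.51% to 7.2% of all genes. For E18 replicate 3 it was 82.4%, where 32.2% of all genes also lay under the limit. The genes looked up in replicates 1, 2, 4 and 5 had all been chosen with E18 replicate 3 in the E18 mean. For every left-out E18 tooth the genes had been chosen against the same E15 mean. The share over all genes has no such choice behind it, so the distance between the shares tests nothing.

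**Figure D4:**
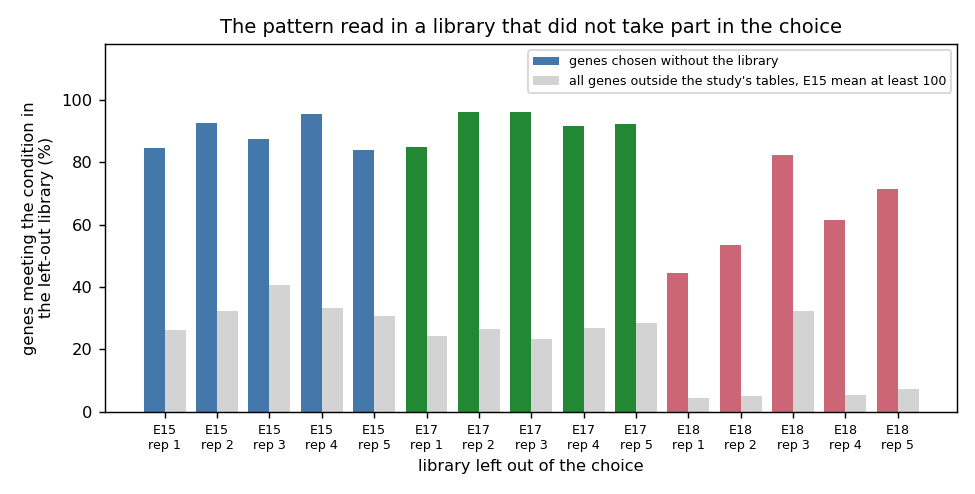
For each library left out of the choice, the coloured bar gives the percentage of the genes chosen from the other 14 that met the condition in it (E15: above every E17 tooth; E17: below every E15 tooth; E18: at most 0.67 of the E15 mean), and the grey bar the same percentage of all genes outside the study's tables with an E15 mean of at least 100. The coloured bars reach 84.1% to 96.2% at E15 and E17 and 44.4% to 82.4% at E18, and the grey bar of E18 replicate 3, at 32.2%, stands above those of the other E18 teeth.

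The label of side took no part in the choice, so side was tested over all genes. For the members this test is not free of the choice, because E18 replicate 3, a left tooth, took part in it. With stage as a covariate, edgeR called 0 of 13013 genes (0%) between left and right teeth at an adjusted p-value under 0.05, 119 genes had an unadjusted p-value under 0.05, and DESeq2 called 0 with 145 unadjusted. Those 119 genes are a smaller share than the 0.05 that chance alone would give, so the absence of calls shows little. Among the 275 members, no gene had an unadjusted p-value under 0.05 and the smallest was 0.0719. The members' log2 differences of left from right had quartiles of -0.11 and 0.02, with a median of -0.05 beside -0.01 over all genes tested. Without E18 replicate 3, a left tooth, the median was 0.03. In that edgeR fit 4 members had an unadjusted p-value under 0.05, beside 217 of all 12988 genes tested. Frzb and Slitrk6 were at -0.08 ± 0.10 and -0.04 ± 0.27 (SE, adjusted p = 1 for both).

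The HTSeq table of the E15 and E17 teeth carries rat identifiers that were not joined to the members here. Taken by itself, it held 853 genes with an E15 mean of at least 100 and every E17 value below every E15 value, which is 7.95% of 10730 such genes. In the salmon table these were 851 of 9944 (8.56%). The median log2 ratio of E17 to E15 over these genes was -0.28 in the HTSeq table and -0.29 in the salmon table.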

How the data were processed

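The authors deposited 2 tables of the rat molar libraries. The salmon table holds estimated counts (expected counts, deposited as whole numbers) of 14185 genes under mouse Ensembl identifiers in 15 libraries. The authors made the HTSeq table of counts for 32883 rat genes in the 10 E15 and E17 libraries by aligning reads with STAR to Rnor_6.0. The submitters' processing notes name Salmon 0.99.0, Trimmomatic 0.39 and FastQC 0.11.8 for E18. The methods of the study name the Ovation Rat RNAseq System for its rat libraries, and these methods cover E15 and E17 only. Reads of near-identical paralogs may be split between them, and the use of strand is not given in the sources used here.

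Members and lists were chosen with earlier results of these data known. Counts of the salmon table were divided by median-of-ratios size factors over all libraries, and the rule was applied to these values. A pseudocount of 1 was added for log2 differences of single teeth. Stage pairs and side were fitted with edgeR 4.0.16 (R 4.3.3; TMM scaling, filterByExpr, quasi-likelihood F test, Benjamini-Hochberg adjustment, threshold 0.05) over all genes passing the filter, using only the libraries compared, or all 15 with stage as a covariate for side. DESeq2 1.42.0 was an alternative. The edgeR fits were also run on simulated counts, with the outcome not reported here. Those counts were drawn independently for each library and held no library like E18 replicate 3, so they do not cover its effect. Named genes were to be members with a symbol, by the size of the fall and level; as the identifiers had almost no symbols, these are the 2 named members, the 8 genes set aside and 2 identifiers. Of 549 symbols in 24 fixed lists, 18 had a row, and 19 lists had none. Tables of RefSeq promoters (GRCr8) gave sequences for 8 of the 10 named genes. A value of 0 allows up to 3 counts, which is 1.45 to 3.68 normalized counts; such limits cover counting error only. Teeth of a stage carry different embryo numbers, except the 2 E17 teeth of 1 embryo, and p-values measure the spread between these teeth. Some results of the fixed lists are not reported here.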

Additional observations from a re-analysis of the deposited data

Results flagged for a closer look

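Within each stage, the gap between the highest or lowest of the 5 teeth and its neighbour was compared with the whole range of the stage, for the 12 named genes or identifiers, for 2 summaries of the members and for the library totals. Of 45 such groups 7 stood out, and 5 of the 7 were at E18. Chance would give about 2.25 if the values within each group followed a normal distribution, which was not checked. The groups share libraries, and E18 replicate 3 took part in choosing the genes, so the 7 are only described. Slitrk6 was at 33.5 normalized counts in E18 replicate 3 and Sp3 at 94.8, each far below the other E18 teeth. The median log2 difference of the members from the E15 mean was -1.82 in the same library. Tle1 was at 1705 in it, above the other E18 teeth. The highest library totals of each stage, 24109716 counts in E15 replicate 1, 16239849 in E17 replicate 3 and 27571541 in E18 replicate 1, also stood apart, and none of these is E18 replicate 3.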

How the results depend on the processing

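The number of members was 275. It was 94 with a ratio limit of 0.5, 540 with 0.8 and 70 where every E18 value also had to lie below every E17 value, and 187 to 351 when 1 library was left out; TMM scaling gave 273, of which 269 were shared. With genes listed as dispensable also left out (an alternative chosen after seeing the data) it was 273. Members called lower at E18 against E17 numbered 28, 58 with DESeq2, 15 with both teeth of 1 E17 embryo summed, and 10 to 82 when 1 library was left out, with 82 without E18 replicate 3. The calls over all genes tested moved too. They were 80 of 12718, 198 of 13409 with DESeq2 and 52 of 12853 with those teeth summed. With 1 library left out they ran from 25 to 250, with 250 without E18 replicate 3. The counts for E17 against E15 and E18 against E15 stayed within 1.5 times under each alternative run, and 0 members were called between sides under each. The 3 medians of the members and the log2 ratios of E18 to E15 of the 12 named genes and identifiers kept their sign under TMM scaling and without each library, and moved by less than 1 SD between teeth, a spread that E18 replicate 3 itself widens. Without that library Sp3 went from -0.59 to -0.28, Bmpr1a from -0.62 to -0.38, and the members' median from E17 to E18 from -0.37 to -0.24. No paired analysis was possible because replicates were numbered in the order of accession, which matches no tooth of 1 stage with a tooth of another. Depth limits members near 0 at E18: 6 members had a count of 0 in at least 1 E18 library.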
